A study of Mus musculus with 12 samples.

Results

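The 48 genes described here are mouse genes of DNA replication and mitosis, chosen by symbol from textbook roles in the cell cycle and found among the 49315 genes of the count table by their Ensembl identifiers. Of these, 13 act at the G1/S boundary or in S phase and 35 act in G2, mitosis or cytokinesis. Bulk RNA-sequencing covered the brains of 12 male mice at 14 d post-stroke. All 12 were CD45.1 Pep Boy recipients on a C57Bl6 background that were irradiated with a shielded head at 8 to 12 weeks of age and underwent a 30 min occlusion of the right middle cerebral artery 8 to 10 weeks after bone marrow (BM) transplantation. In the WT group (n = 6), 10% of the transplanted cells came from CD45.2 *Tet2*+/+ donors, and in the *Tet2*-KO group (n = 6) the same share came from CD45.2 *Tet2*-/- donors. In both groups the other 90% were CD45.1 *Tet2*+/+ cells, so the host brain and most of the graft carried intact *Tet2*. *Tet2* was at 126 to 147 CPM in WT mice and at 117 to 137 CPM in *Tet2*-KO mice. CPM are counts per 1000000 of the library total after its correction by the TMM factor of edgeR. The log2 fold change of *Tet2* was -0.01, so brain RNA gave no check of the genotype labels. In the labels, title and genotype set the 2 groups apart, but the treatment given is control cells for all 12 mice, and the titles were followed here. No sham-operated or uninjured brain was analysed here.

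Cells that divide copy their DNA in S phase and separate it in mitosis, and the genes for each step are transcribed in waves. E2F factors switch on the replication genes at the G1/S boundary, and the DREAM and MuvB complexes, acting through a promoter element called the cell cycle genes homology region (CHR), hold mitotic genes silent in resting cells and help to raise them in G2. Most neurons of the adult brain do not divide. After a stroke, microglia, infiltrating leukocytes, reactive astrocytes, oligodendrocyte precursors, vascular cells and the neural progenitors of the subventricular zone are the cells known to enter the cycle.

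Library totals ran from 12000261 to 15340787 counts for WT mice and from 12625047 to 21049763 for *Tet2*-KO mice, and the 48 genes together took between 3250 and 5586 counts of each library. Many of the members were therefore measured with few reads in brain tissue, and raw counts are given beside the low ones. A pair of libraries stood apart. WT mouse 2 had the highest CPM of the WT group in 29 of the 45 members that could be tested, and *Tet2*-KO mouse 5 had the highest CPM of its group in 37 of the 45. The count of lower genes in each group of members is given over all mice and, where it moved by more than 1.5 times, without *Tet2*-KO mouse 5. Leaving out the highest mouse of a group lowers that group by construction, so these second counts are no separate support. Leaving out WT mouse 2 instead reduced the count over all members, as given below, and its counts by role are not given. The study speaks of brains in one place and of hemispheres in another for this RNA, so how much of the brain each library covers is uncertain. In RNA of bulk brain tissue, fewer dividing cells and less of each RNA per dividing cell cannot be told apart.

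Most cell cycle genes had lower mean levels in the *Tet2*-KO than in the WT group, but no single gene passed the adjusted threshold with edgeR. Of the 45 members with enough reads to be tested, 43 had a negative log2 fold change (*Tet2*-KO over WT), against 47.7% of all 20290 tested genes. By the quasi-likelihood test of edgeR, 13 of those members (28.9%) were lower at an unadjusted p under 0.05, and none was higher. Over all genes in the fit these shares were 12.2% lower and 10.8% higher. After Benjamini-Hochberg adjustment over all tested genes, 0 members passed 0.05 in edgeR, where 0.0246% of all tested genes passed as lower, and the smallest adjusted p of a member was 0.114. The DESeq2 Wald test passed 2 members after adjustment, *Cenpf* (adjusted p = 0.0174) and *Rrm2* (adjusted p = 0.0308), where 3.32% of the genes with an adjusted p passed as lower and 0.922% as higher. limma-voom with quality weights passed 7 members, all with a negative fold change, against 6.38% of all genes as lower and 2.8% as higher. The median log2 fold change was -0.39 over the 45 members and 0.01 over all tested genes.

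**Figure D1:**
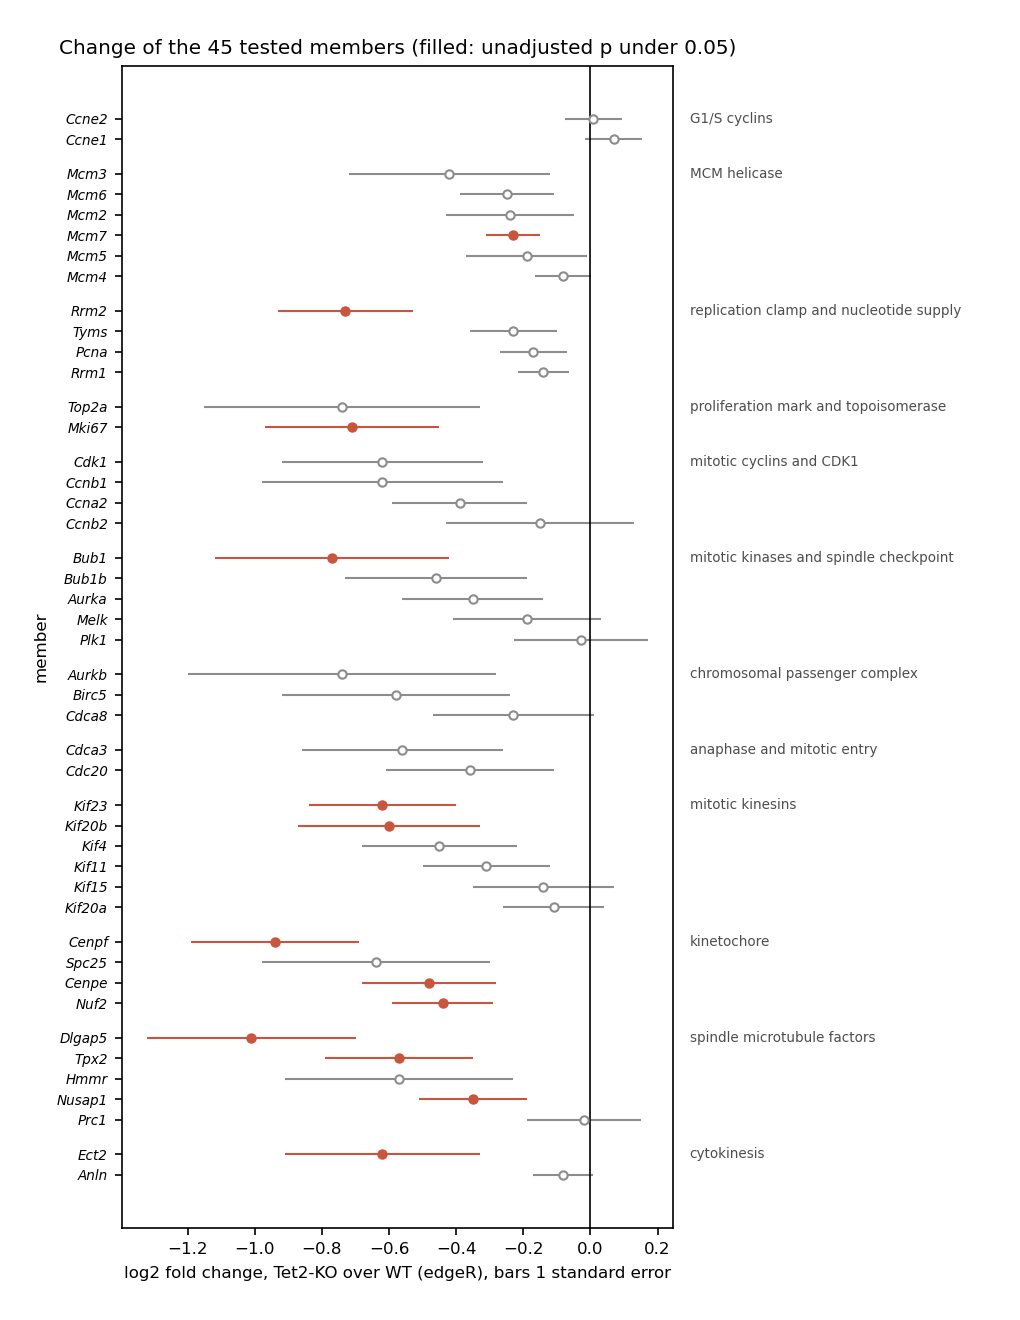
Log2 fold change of each of the 45 tested members, *Tet2*-KO over WT, from edgeR, grouped by role, with bars of 1 standard error and filled points for an unadjusted p under 0.05. All but *Ccne1* and *Ccne2* lie left of 0, and the 33 genes of G2, mitosis and cytokinesis range from -1.01 to -0.02.

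The count depended on single mice. Without *Tet2*-KO mouse 5, 29 members were lower at an unadjusted p under 0.05 (14.6% of all genes) and 13 passed the adjusted threshold of edgeR (7.3% of all genes as lower and 3.7% as higher). Those 13 were *Mcm7*, *Rrm2*, *Mki67*, *Top2a*, *Kif11*, *Kif20b*, *Kif23*, *Cenpe*, *Cenpf*, *Nuf2*, *Tpx2*, *Dlgap5* and *Ect2*. Without WT mouse 2 only 6 members were lower at an unadjusted p under 0.05, and the count was 7 without *Tet2*-KO mouse 2, 8 without *Tet2*-KO mouse 1 and 8 without WT mouse 5. With WT mouse 2 and *Tet2*-KO mouse 5 both left out, a choice made after the data were seen, 25 members were lower at an unadjusted p under 0.05 (12.1% of all genes). *Rrm2*, *Mki67*, *Kif20b*, *Cenpf* and *Ect2* then passed the adjusted threshold of edgeR (4.94% of all genes as lower and 2.65% as higher). No member separated the groups fully, whereas 0.641% of all tested genes had each *Tet2*-KO value under the lowest WT value and 0.453% had each above the highest. In 5 members, *Mcm7*, *Rrm2*, *Mki67*, *Kif20b* and *Cenpf*, all *Tet2*-KO mice other than mouse 5 lay below every WT mouse, as they did in 4.78% of all tested genes.

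**Figure D2:**
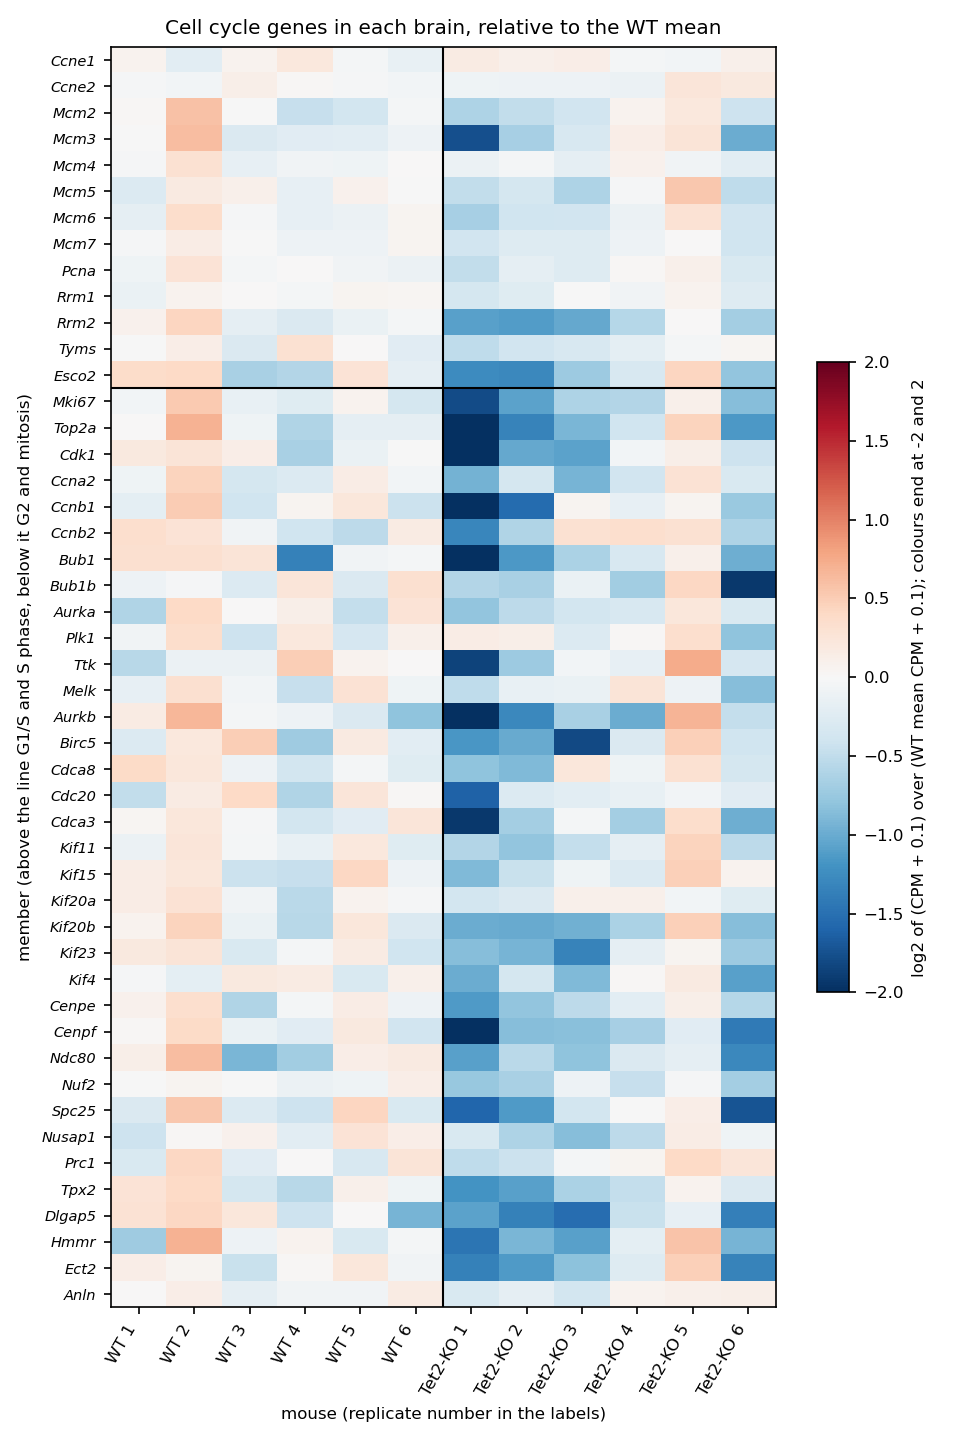
Level of each of the 48 members (rows) in each of the 12 mice (columns), as the log2 of CPM plus 0.1 over the WT mean plus 0.1, with blue below and red above the WT mean and colours that end at -2 and 2. *Tet2*-KO mouse 1 is blue in most rows, whereas *Tet2*-KO mouse 5 and WT mouse 2 are red in most rows.

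The promoters of 6 members are shown because they carry examples of the cell cycle elements counted below. The stretches run from 200 bases before to 30 bases after the RefSeq transcription start (GRCm38), 5′ to 3′ on the gene's strand. Capitals mark the elements that were searched for on either strand. The CHR was read as TTTGAA. A second form of it was read as TTCGAA. The binding box of the factor NF-Y was read as CCAAT. The E2F element was read as TTTCCCGC, TTTGGCGC, TTTCGCGC or TTTGCCGC. *Mki67* (ENSMUSG00000031004, chr7:135689784-135716361), *Top2a* (ENSMUSG00000020914, chr11:98992943-99024189) and *Cenpf* (ENSMUSG00000026605, chr1:189640606-189688086) are on the minus strand, as is *Mcm7* (ENSMUSG00000029730, chr5:138164583-138172422). *Prc1* (ENSMUSG00000038943, chr7:80294450-80316259) and *Rrm2* (ENSMUSG00000020649, chr12:24708241-24714146) are on the plus strand. The printed windows are chr7:135716350-135716579 for *Mki67*, chr11:99024160-99024389 for *Top2a*, chr1:189688057-189688286 for *Cenpf*, chr7:80294251-80294480 for *Prc1*, chr5:138171854-138172083 for *Mcm7* and chr12:24708054-24708283 for *Rrm2*.
Mki67: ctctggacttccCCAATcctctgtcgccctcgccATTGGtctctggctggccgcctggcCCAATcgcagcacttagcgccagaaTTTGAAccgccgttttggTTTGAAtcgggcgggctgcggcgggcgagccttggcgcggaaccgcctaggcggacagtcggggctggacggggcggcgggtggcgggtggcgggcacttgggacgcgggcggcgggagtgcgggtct
Top2a: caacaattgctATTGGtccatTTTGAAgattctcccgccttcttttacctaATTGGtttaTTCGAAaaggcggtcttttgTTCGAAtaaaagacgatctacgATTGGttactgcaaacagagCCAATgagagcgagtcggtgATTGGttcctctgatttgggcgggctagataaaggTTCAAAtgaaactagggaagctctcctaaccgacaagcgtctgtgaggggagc
Cenpf: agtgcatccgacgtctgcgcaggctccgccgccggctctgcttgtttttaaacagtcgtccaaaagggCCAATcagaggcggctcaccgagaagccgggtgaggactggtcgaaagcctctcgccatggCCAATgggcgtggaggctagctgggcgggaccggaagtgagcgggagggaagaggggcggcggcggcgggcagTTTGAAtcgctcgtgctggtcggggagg
Prc1: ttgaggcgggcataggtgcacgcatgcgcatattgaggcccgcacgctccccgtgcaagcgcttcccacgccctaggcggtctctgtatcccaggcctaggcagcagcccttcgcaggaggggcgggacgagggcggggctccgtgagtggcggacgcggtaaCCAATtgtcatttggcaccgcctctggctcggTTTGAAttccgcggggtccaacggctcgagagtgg
Mcm7: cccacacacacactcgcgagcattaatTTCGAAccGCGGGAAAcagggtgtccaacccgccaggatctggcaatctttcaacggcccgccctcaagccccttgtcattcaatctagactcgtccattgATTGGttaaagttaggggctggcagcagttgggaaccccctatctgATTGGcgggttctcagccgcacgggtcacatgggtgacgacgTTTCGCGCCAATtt
Rrm2: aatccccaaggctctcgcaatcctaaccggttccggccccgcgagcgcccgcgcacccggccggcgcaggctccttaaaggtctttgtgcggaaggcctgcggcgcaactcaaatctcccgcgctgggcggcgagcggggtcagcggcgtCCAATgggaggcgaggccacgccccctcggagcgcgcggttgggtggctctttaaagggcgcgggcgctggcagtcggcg

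The *Mki67* promoter holds TTTGAA on the gene's strand at 116 and at 98 bases before the start, with CCAAT boxes upstream of both. In *Top2a*, TTTGAA and TTCGAA elements lie among CCAAT boxes on both strands, and TTCGAA reads the same on both. *Cenpf* has its TTTGAA 2 bases into the transcript, below a pair of CCAAT boxes, and *Prc1* has TTTGAA 5 bases before the start. *Mcm7* holds E2F letters on both strands, of which the downstream one shares a base with a CCAAT box, and a TTCGAA. In *Rrm2* only a CCAAT box was found. Of the members, 40 have a RefSeq window of 300 bases (250 before and 50 after the start), and *Mcm4*, *Esco2*, *Ccne2*, *Ccna2*, *Aurkb*, *Kif20a*, *Tpx2* and *Dlgap5* have none. A CHR was found in 24 of the 30 G2 and mitosis members with a window (80%), in 2 of the 10 S phase members (20%, *Mcm2* and *Mcm7*) and in 21.7% of the windows of all 27025 genes. The 6 mitotic members without a CHR in the window were *Ccnb1*, *Melk*, *Birc5*, *Cenpe*, *Nuf2* and *Nusap1*. A CCAAT box stood in 22 of the 30 (73.3%) and in 8 of the 10 (80%), against 41.1% of all windows. The E2F letters were found in 4 of the 10 S phase members (40%, *Mcm3*, *Mcm5*, *Mcm6* and *Mcm7*), in 2 of the 30 mitotic members (*Cdk1* and *Kif15*) and in 2.6% of all windows. The median log2 fold change was -0.51 over the 22 tested mitotic members with a CHR and -0.46 over the 6 without. A match is a run of letters and no evidence that a factor binds there.

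Of the 12 tested genes that start and carry out DNA replication, 10 had a negative log2 fold change, and the median over the 12 was -0.21. At an unadjusted p under 0.05, 2 of them were lower (16.7%, *Mcm7* and *Rrm2*), near the 12.2% of all genes, and neither passed the adjusted threshold of edgeR. Their number was 6 without *Tet2*-KO mouse 5 (14.6% of all genes) and 4 without that mouse and WT mouse 2 (12.1%). *Ccne1* and *Ccne2* encode the E cyclins, which switch on CDK2 at the G1/S boundary, and were the only tested members with a positive log2 fold change. *Ccne1* lay between 7.96 and 10.6 CPM in WT mice (median 9.31) and between 8.86 and 10.3 CPM in *Tet2*-KO mice (median 9.90). *Ccne2* ranged from 9.32 to 10.5 CPM in WT mice (median 9.56) and from 8.95 to 11.5 CPM in *Tet2*-KO mice (median 9.07). The groups overlapped in both, and the log2 fold changes of 0.07 ± 0.09 (SE) for *Ccne1* and 0.01 ± 0.09 for *Ccne2* were within their errors. The *Ccne2* value turned to -0.04 without *Tet2*-KO mouse 5.

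The 6 *Mcm* genes encode the ring-shaped helicase that opens DNA ahead of the replication fork. All 6 had a negative log2 fold change, from -0.42 (*Mcm3*) to -0.08 (*Mcm4*). Only *Mcm7* was lower at an unadjusted p under 0.05 (12.2% of all genes), against 3 of the 6 without *Tet2*-KO mouse 5 (14.6%). *Mcm7* lay between 15.6 and 18.6 CPM in WT mice (median 16.6) and between 12.7 and 16.9 CPM in *Tet2*-KO mice (median 13.9). Of the *Tet2*-KO mice, 5 lay below every WT mouse and mouse 5 lay among them. The log2 fold change of *Mcm7* was -0.23 ± 0.08 (SE), a fitted level 0.854 times that of WT mice, with an edgeR adjusted p of 0.136 and, without *Tet2*-KO mouse 5, of 0.033. *Mcm3* had the widest range of the helicase genes in *Tet2*-KO mice, from 2.54 to 10.6 CPM, with mouse 1 lowest and mouse 5 highest. *Mcm7* shares 7.25% of its exonic bases with *Ap4m1* on the opposite strand, and whether counting used the strand is not given in the sources used here.

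*Pcna* encodes the sliding clamp that holds DNA polymerase on its template, *Rrm1* and *Rrm2* the large and small subunits of ribonucleotide reductase, and *Tyms* the thymidylate synthase, which together supply and place the new nucleotides. *Pcna*, with the highest level per length of all members (10.7 CPM per kilobase of exon in WT mice), lay between 23.7 and 31.1 CPM in WT mice (median 24.8) and between 18.3 and 27.5 CPM in *Tet2*-KO mice (median 22.2). Its groups overlapped, and its log2 fold change was -0.17 ± 0.10 (SE, edgeR adjusted p = 0.295). *Rrm2* had 36 to 62 counts in WT mice and 23 to 42 counts in *Tet2*-KO mice, or 2.66 to 4.45 CPM (median 3.07) and 1.46 to 3.29 CPM (median 1.77). All *Tet2*-KO mice but mouse 5 lay below every WT mouse. Its log2 fold change was -0.73 ± 0.20 (SE), a fitted level 0.602 times that of WT mice, with an adjusted p of 0.115 in edgeR, 0.0308 in DESeq2 and 0.017 in limma-voom. *Rrm1*, the partner subunit, had a log2 fold change of -0.14 ± 0.08 (edgeR unadjusted p = 0.0921), and *Tyms* of -0.23 ± 0.13 (edgeR unadjusted p = 0.0898). Without *Tet2*-KO mouse 5, *Pcna*, *Rrm1* and *Rrm2* were lower at an unadjusted p under 0.05 (14.6% of all genes). Without WT mouse 2 as well, only 1 of the 4 genes was (12.1%). *Esco2*, an acetyltransferase that locks cohesin onto sister chromatids, had too few reads for the fit, with 6 to 14 counts in WT mice and 4 to 13 counts in *Tet2*-KO mice.

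**Figure D3:**
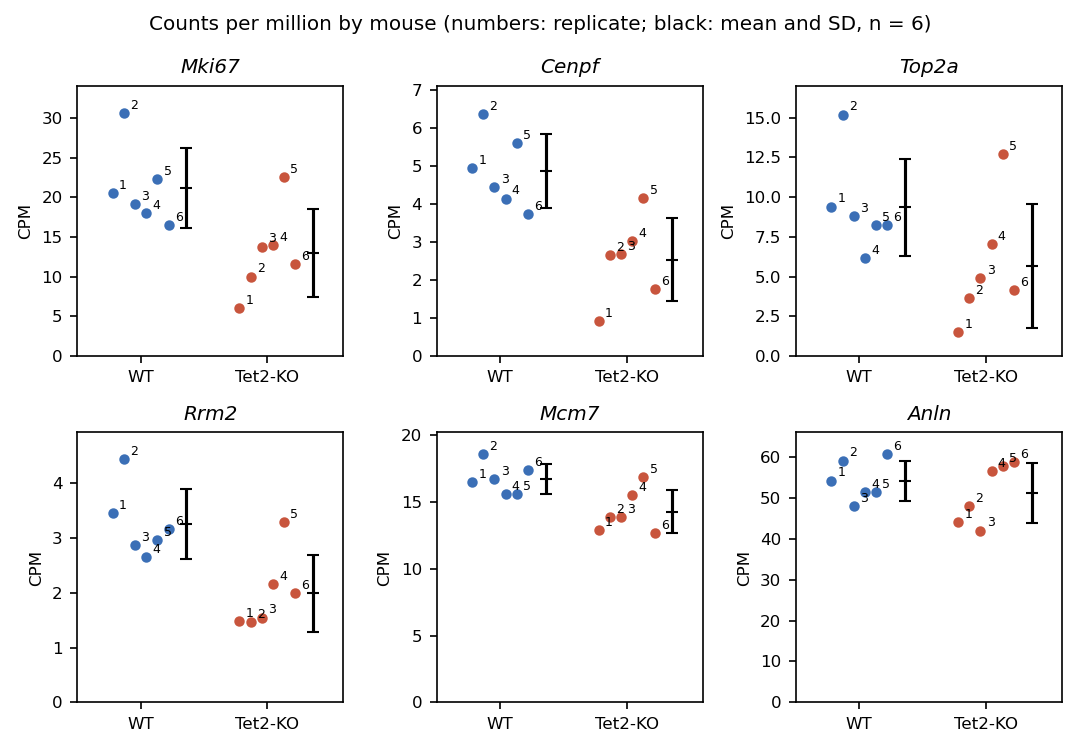
CPM of *Mki67*, *Cenpf*, *Top2a*, *Rrm2*, *Mcm7* and *Anln* in each of the 12 mice, numbered by replicate, with the group mean and SD (n = 6) in black. In *Mki67*, *Cenpf*, *Rrm2* and *Mcm7* the *Tet2*-KO mice other than mouse 5 lie below every WT mouse, whereas the groups of *Anln* overlap over most of their range.

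All 33 tested genes of G2, mitosis and cytokinesis had a negative log2 fold change, with a median of -0.48. At an unadjusted p under 0.05, 11 of them (33.3%) were lower, against 12.2% of all tested genes. These 11 were *Mki67*, *Bub1*, *Kif20b*, *Kif23*, *Cenpe*, *Cenpf*, *Nuf2*, *Nusap1*, *Tpx2*, *Dlgap5* and *Ect2*. Their number was 23 without *Tet2*-KO mouse 5 (14.6% of all genes) and 21 without that mouse and WT mouse 2 (12.1%). The median ranged from -0.70 without *Tet2*-KO mouse 5 to -0.40 without *Tet2*-KO mouse 1 as each mouse was left out in turn. The genes of one mitotic programme rise and fall in the same cells, so the 33 values are not independent of each other, and no test was made of the difference from the S phase members.

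*Mki67* encodes Ki-67, the nuclear protein whose staining marks cycling cells, and *Top2a* encodes the topoisomerase that untangles replicated DNA. *Mki67* lay between 16.5 and 30.6 CPM in WT mice (median 19.8) and between 6.07 and 22.6 CPM in *Tet2*-KO mice (median 12.7). WT mouse 2 was the highest of its group, and *Tet2*-KO mouse 5 was the only *Tet2*-KO mouse within the WT range. The mean was 21.2 ± 5.02 CPM (SD, n = 6) in WT mice and 13.0 ± 5.52 CPM in *Tet2*-KO mice. The log2 fold change was -0.71 ± 0.26 (SE), with an edgeR adjusted p of 0.157 over all mice, 0.0229 without *Tet2*-KO mouse 5 and 0.0314 without that mouse and WT mouse 2. *Top2a* lay between 6.16 and 15.2 CPM in WT mice (median 8.54) and between 1.49 and 12.7 CPM in *Tet2*-KO mice (median 4.53). *Tet2*-KO mouse 1 had 24 counts of *Top2a*, the lowest, and 4 *Tet2*-KO mice lay below every WT mouse. The log2 fold change of *Top2a* was -0.74 ± 0.41 (SE), close in size to that of *Mki67* but with a wider spread (edgeR adjusted p = 0.297, and 0.0482 without *Tet2*-KO mouse 5).

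CDK1 is the kinase that drives cells into mitosis, and cyclins A2, B1 and B2 are its activating partners. *Cdk1* lay between 1.30 and 2.51 CPM in WT mice (median 2.18; 20 to 35 counts) and between 0.434 and 2.28 CPM in *Tet2*-KO mice (median 1.26; 7 to 39 counts). *Ccna2* lay between 4.16 and 7.32 CPM in WT mice (median 5.10) and between 2.73 and 6.51 CPM in *Tet2*-KO mice (median 4.12). In each of these genes, 5 *Tet2*-KO mice were below the WT median and the groups overlapped. The log2 fold changes were -0.62 ± 0.30 (SE) for *Cdk1*, -0.39 ± 0.20 for *Ccna2*, -0.62 ± 0.36 for *Ccnb1* and -0.15 ± 0.28 for *Ccnb2*. None of the 4 was lower at an unadjusted p under 0.05 in edgeR over all mice, and the smallest adjusted p was 0.227. Without *Tet2*-KO mouse 5 the count was 2 of 4, *Cdk1* and *Ccna2* (14.6% of all genes). With limma-voom over all mice it was 3 of 4 (14.1% of all genes).

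Among the kinases of mitotic entry and of the spindle checkpoint, which delays anaphase until every chromosome is attached, the log2 fold changes of the 5 tested genes ran from -0.77 (*Bub1*) to -0.03 (*Plk1*). *Bub1*, a checkpoint kinase at the kinetochore, had 7 to 23 counts in WT mice and 4 to 20 counts in *Tet2*-KO mice, or 0.454 to 1.65 CPM (median 1.42) and 0.248 to 1.41 CPM (median 0.711). All 6 *Tet2*-KO mice were below the WT median, and WT mouse 4 lay far below the rest of its group. The edgeR adjusted p of *Bub1* was 0.206. It was the only one of the 5 that was lower at an unadjusted p under 0.05 (12.2% of all genes). Without *Tet2*-KO mouse 5 there were 3, *Bub1*, *Bub1b* and *Aurka* (14.6% of all genes). *Bub1b*, whose product restrains the anaphase promoting complex, lay between 4.53 and 6.98 CPM in WT mice (median 5.32) and between 1.38 and 7.45 CPM in *Tet2*-KO mice (median 3.58). Here *Tet2*-KO mouse 6 was the lowest and mouse 5 was above every WT mouse, and the log2 fold change was -0.46 ± 0.27 (SE, edgeR adjusted p = 0.332). *Aurka*, a kinase of the spindle poles, was at -0.35 ± 0.21, and *Melk*, a kinase that peaks in mitosis, at -0.19 ± 0.22. *Plk1*, which acts from mitotic entry to cytokinesis, was within its error at -0.03 ± 0.20. *Ttk*, the checkpoint kinase also known as MPS1, did not pass the filter, with 6 to 16 counts in WT mice and 2 to 16 in *Tet2*-KO mice.

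The chromosomal passenger complex corrects wrong spindle attachments and later marks the cleavage plane, and 3 of its genes were members. *Birc5* (survivin) lay between 0.972 and 2.37 CPM in WT mice (median 1.66; 15 to 33 counts) and between 0.403 and 2.35 CPM in *Tet2*-KO mice (median 1.00; 6 to 30 counts). *Cdca8* (borealin) lay between 1.30 and 2.26 CPM in WT mice (median 1.61) and between 0.875 and 2.12 CPM in *Tet2*-KO mice (median 1.45). The groups overlapped in both. The log2 fold change was -0.58 ± 0.34 (SE) for *Birc5*, -0.23 ± 0.24 for *Cdca8* and -0.74 ± 0.46 for *Aurkb*, the kinase of the complex, with edgeR adjusted p-values between 0.309 and 0.597. None was lower at an unadjusted p under 0.05 over all mice, and *Birc5* and *Aurkb* were without *Tet2*-KO mouse 5 (14.6% of all genes). *Aurkb* had 1 count in *Tet2*-KO mouse 1 and 28 counts at the top of that group, against 9 to 30 counts in WT mice.

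*Cdc20*, the activator of the anaphase promoting complex, lay between 1.10 and 2.30 CPM in WT mice (median 1.84) and between 0.496 and 1.65 CPM in *Tet2*-KO mice (median 1.47). All 6 *Tet2*-KO mice were below the WT median, 5 of them within the WT range and mouse 1 well below it. *Cdca3*, which helps to trigger mitotic entry, lay between 1.10 and 1.75 CPM in WT mice (median 1.47) and between 0.310 and 1.88 CPM in *Tet2*-KO mice (median 0.875), with 4 *Tet2*-KO mice below every WT mouse. The edgeR adjusted p was 0.415 for *Cdc20* (log2 fold change -0.36 ± 0.25, SE) and 0.275 for *Cdca3* (-0.56 ± 0.30). Of this pair, *Cdca3* was lower at an unadjusted p under 0.05 once *Tet2*-KO mouse 5 was left out (14.6% of all genes).

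The 6 mitotic kinesins move chromosomes and spindle microtubules, and their log2 fold changes ran from -0.62 (*Kif23*) to -0.11 (*Kif20a*). *Kif23* and *Kif20b* were lower at an unadjusted p under 0.05, against 12.2% of all genes. Without *Tet2*-KO mouse 5 the number was 4, with *Kif11* and *Kif4* added (14.6% of all genes). *Kif23*, a subunit of the centralspindlin complex of the cleavage site, had 27 to 48 counts in WT mice and 16 to 49 counts in *Tet2*-KO mice, or 2.14 to 3.44 CPM (median 3.00) and 1.08 to 2.98 CPM (median 1.62). Of the *Tet2*-KO mice, 4 lay below every WT mouse, with mice 4 and 5 inside the WT range. Its log2 fold change was -0.62 ± 0.22 (SE), with an adjusted p of 0.142 in edgeR and 0.0321 in limma-voom. *Kif15*, which backs up *Kif11* in keeping the spindle bipolar, lay between 3.50 and 6.51 CPM in WT mice (median 4.97) and between 2.60 and 6.83 CPM in *Tet2*-KO mice (median 4.29), a log2 fold change of -0.14 ± 0.21. *Kif20a* shares 29.3% of its exonic bases with *Cdc23* on the opposite strand, the largest such share among the members, and part of its counts may belong to that gene if counting ignored the strand. *Ccna2*, *Ccne2*, *Cdc20*, *Cdca8*, *Kif4*, *Mcm7*, *Nusap1*, *Plk1* and *Prc1* share at most 17.4% with any one gene on the opposite strand.

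Kinetochore genes, whose products join chromosomes to the spindle, held the member with the smallest p. *Cenpf* had 47 to 89 counts in WT mice and 15 to 59 counts in *Tet2*-KO mice, or 3.73 to 6.38 CPM (median 4.71) and 0.929 to 4.16 CPM (median 2.68). *Tet2*-KO mouse 5 alone reached the WT range, and mouse 1 was the lowest. The mean was 4.88 ± 0.983 CPM (SD, n = 6) in WT mice and 2.54 ± 1.10 CPM in *Tet2*-KO mice, and the fitted level was 0.52 times that of WT mice. The log2 fold change was -0.94 ± 0.25 (SE), with an adjusted p of 0.114 in edgeR, 0.0174 in DESeq2 and 0.0204 in limma-voom. *Nuf2* (-0.44 ± 0.15) and *Cenpe* (-0.48 ± 0.20), a kinetochore motor, were also lower at an unadjusted p under 0.05 (12.2% of all genes). *Spc25* (-0.64 ± 0.34) was not. The adjusted p of *Nuf2* was 0.048 in limma-voom. *Nuf2*, *Spc25* and *Ndc80* encode subunits of the same NDC80 complex, and *Ndc80* did not pass the filter, with 6 to 20 counts in WT mice and 4 to 14 in *Tet2*-KO mice.

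Of the 5 genes of spindle microtubule factors, *Dlgap5*, *Tpx2* and *Nusap1* were lower at an unadjusted p under 0.05 (12.2% of all genes). *Dlgap5*, whose product HURP stabilises the fibres that pull on kinetochores, had 7 to 22 counts in WT mice and 5 to 16 counts in *Tet2*-KO mice, or 0.555 to 1.58 CPM (median 1.26) and 0.336 to 1.02 CPM (median 0.442). All 6 *Tet2*-KO values were under the WT median and 4 were under the lowest WT value. Its log2 fold change of -1.01 ± 0.31 (SE) was the largest of the members and rests on few reads (adjusted p = 0.123 in edgeR and 0.0365 in limma-voom). *Tpx2*, the activator of Aurora A at the spindle, was at -0.57 ± 0.22 and *Nusap1* at -0.35 ± 0.16, whereas *Hmmr*, at -0.57 ± 0.34, did not pass. *Prc1*, which bundles the microtubules of the midzone, lay between 7.42 and 12.3 CPM in WT mice (median 8.62) and between 6.44 and 12.2 CPM in *Tet2*-KO mice (median 9.29). Its ranges nearly coincided, and its log2 fold change of -0.02 ± 0.17 took the other sign, 0.01, with upper quartile scaling.

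The 2 cytokinesis genes differed from each other. *Ect2* encodes the activator of RhoA that starts the cleavage furrow and lay between 1.94 and 3.13 CPM in WT mice (median 2.76) and between 0.991 and 3.77 CPM in *Tet2*-KO mice (median 1.32). *Tet2*-KO mice 1, 2, 3 and 6 were under the lowest WT value and mouse 5 was over the highest. The log2 fold change of *Ect2* was -0.62 ± 0.29 (SE), with an adjusted p of 0.213 in edgeR and 0.0321 in limma-voom. *Anln* encodes anillin, the scaffold of the furrow, which myelinating oligodendrocytes also make. It had the highest CPM of all members, between 48 and 60.7 in WT mice (median 52.8) and between 42.0 and 58.7 in *Tet2*-KO mice (median 52.3), and a log2 fold change within its error, -0.08 ± 0.09 (adjusted p = 0.623 in edgeR). None of the 6 oligodendrocyte markers was lower at an unadjusted p under 0.05, against 12.2% of all tested genes. Their median log2 fold change was 0.01, with summed levels of 4563 to 5975 CPM in WT mice and 4233 to 5928 CPM in *Tet2*-KO mice. The part of oligodendrocyte RNA in the *Anln* level was not tested.

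The 3 members below the filter were compared by exact two-sided permutation tests of their CPM. The p was 0.0606 for *Ndc80*, 0.123 for *Esco2* and 0.55 for *Ttk*, where the smallest p that 6 against 6 mice allow is 0.00216. Adjusted over the 3 tests, these exact permutation p-values were 0.182, 0.185 and 0.55. Mean CPM was 0.897 ± 0.369 (SD, n = 6) against 0.54 ± 0.19 for *Ndc80* and 0.735 ± 0.262 against 0.477 ± 0.291 for *Esco2*, WT first. A difference was not detectable at this depth for these genes.

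**Figure D4:**
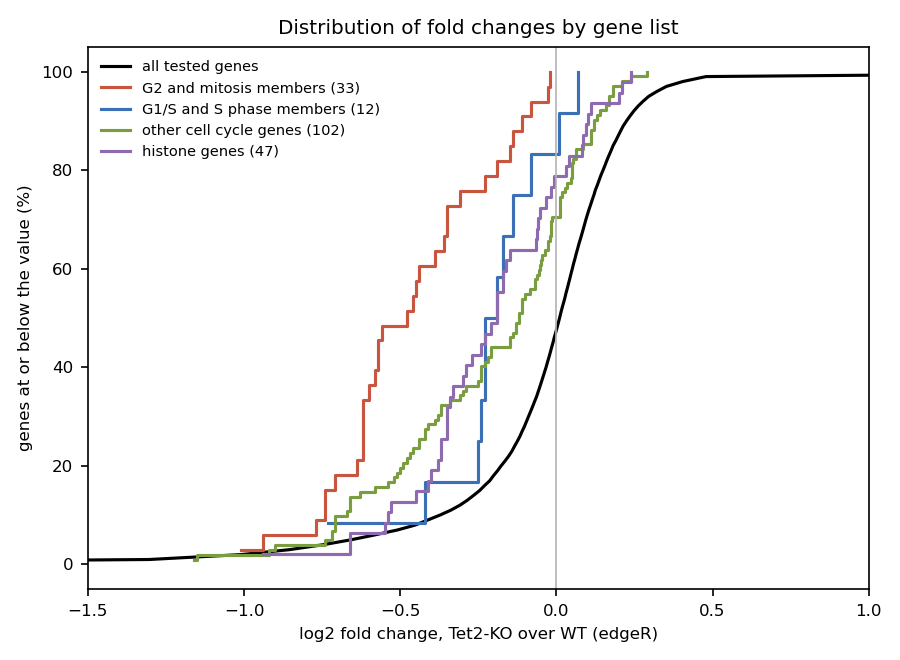
Cumulative share of genes (%) at or below each log2 fold change (*Tet2*-KO over WT, edgeR) for all 20290 tested genes and for the members and the further cell cycle lists. The curve of the G2 and mitosis members has its median at -0.48, that of the S phase members at -0.21 and that of all genes at 0.01.

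A further 109 cell cycle genes that are no members were examined, from G1 cyclins and their inhibitors to condensins, and 102 could be tested. Of these, 72 had a negative log2 fold change with a median of -0.12 over the 102. In edgeR, 22 (21.6%) were lower at an unadjusted p under 0.05 and 2 were higher, against 12.2% and 10.8% of all tested genes. After adjustment 0 passed. The number lower at an unadjusted p under 0.05 rose to 36 without *Tet2*-KO mouse 5 (14.6% of all genes). DESeq2 passed 3 as lower after adjustment, *Ube2c*, *E2f2* and *Rbl1*, where 3.32% of all genes with an adjusted p passed as lower. *Ube2c*, the ubiquitin-conjugating enzyme of the anaphase promoting complex, averaged 1.84 ± 0.435 CPM (SD, n = 6) in WT mice and 0.837 ± 0.403 CPM in *Tet2*-KO mice, for a difference of -1.16 ± 0.26 on the log2 scale (SE; adjusted p = 0.11 in edgeR and 0.00923 in DESeq2). *E2f2*, an activating E2F factor, was at -0.92 ± 0.25 (adjusted p = 0.115 in edgeR and 0.0251 in DESeq2), whereas *E2f1*, its relative, was within its error at 0.05 ± 0.12. *Rbl1* encodes p107, a pocket protein of the RB family that binds E2F factors, and was at -0.63 ± 0.19. The kinesin gene *Kif18b* (-1.15 ± 0.37) and *Tk1* (-0.37 ± 0.12), the thymidine kinase of S phase, completed the 5 with the smallest p. *Cdkn1a*, which encodes the p21 inhibitor of cell division, was also lower at an unadjusted p under 0.05, at -0.41 ± 0.13, from 17.6 ± 1.37 CPM (SD, n = 6) in WT mice to 13.3 ± 3.38 CPM in *Tet2*-KO mice. The inhibitor thus had the same sign as the genes of division. The transcription factor genes *Foxm1* (-0.44 ± 0.26) and *Mybl2* (-0.31 ± 0.30), which drive mitotic genes, did not pass, and *Ccnd1*, the G1 cyclin that mitogens induce, was within its error at -0.05 ± 0.10. The 2 genes that were higher at an unadjusted p under 0.05 were *Cdk7* (0.16 ± 0.05), a kinase of both cell cycle and transcription, and *Dut* (0.21 ± 0.09), which clears dUTP from the nucleotide pool. By role, 15 of the 17 tested spindle and cytokinesis genes of this list had a negative log2 fold change (median -0.50 over all mice). Of the 17, 4 were lower at an unadjusted p under 0.05 (12.2% of all genes) and 9 without *Tet2*-KO mouse 5 (14.6%). The 13 genes of the RB and E2F families had a median of 0.01.

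Most histone genes of the replication-dependent clusters are transcribed in S phase into RNA without a poly(A) tail, which libraries made by ribosomal RNA depletion retain. Genes were taken here by the symbols of these clusters, and whether each one follows S phase in brain was not tested. Of 65 genes with such a symbol, 47 could be tested, 37 had a negative log2 fold change, and the median was -0.19. In edgeR, 6 (12.8%) were lower at an unadjusted p under 0.05, near the 12.2% of all genes, and 1 was higher, against 10.8% of all genes. The number lower was 13 without *Tet2*-KO mouse 5 (14.6% of all genes) and 3 without WT mouse 1. *Hist1h2bc* averaged 22.5 ± 2.52 CPM (SD, n = 6) in WT mice and 16.4 ± 2.33 CPM in *Tet2*-KO mice, and the groups did not overlap. Its log2 fold change was -0.45 ± 0.10 (SE; adjusted p = 0.11 in edgeR and 0.00542 in DESeq2). *Hist1h2bb* (-0.53 ± 0.19) and *Hist1h1c* (-0.41 ± 0.15) were the next by p. The cluster holds near-identical copies, so the values of single histone genes are uncertain.

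The mice were also compared over the members as a list. For each mouse, the median log2 ratio to the WT mean over the 33 mitotic members was taken. In WT mice it lay between -0.24 (mouse 4) and 0.31 (mouse 2). Among *Tet2*-KO mice it was -1.07 in mouse 1, -0.79 in mouse 2, -0.67 in mouse 6, -0.52 in mouse 3, -0.26 in mouse 4 and 0.18 in mouse 5. The values of mice 1, 2, 3, 4 and 6 were under the lowest WT value, and mouse 5 was above all WT mice but mouse 2. Over all tested genes the same median lay between -0.012 (WT mouse 5) and 0.012 (WT mouse 2). Counted by gene, *Tet2*-KO mouse 1 was under the whole WT range in 30 of the 33 genes, mouse 2 in 25, mouse 6 in 18, mouse 3 in 16, mouse 4 in 9 and mouse 5 in none. The matching share of all genes for each mouse is not given here, so these counts are descriptions only. Over the 12 S phase members the medians ran from -0.09 to 0.23 in WT mice and from -0.49 (mouse 1) to 0.08 (mouse 5) in *Tet2*-KO mice.

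Markers of several cell types had lower levels in the *Tet2*-KO group, as the members did. The counts of lower markers in this paragraph compare with 12.2% of all tested genes that were lower at an unadjusted p under 0.05. All 9 markers of activated phagocytes, such as *Gpnmb*, *Spp1* and *Cd68*, had a negative log2 fold change, with a median of -1.24. Of the 9, 7 were lower at an unadjusted p under 0.05. Their summed level was 1014 to 2396 CPM in WT mice and 111 to 1463 CPM in *Tet2*-KO mice, highest in WT mouse 2 and in *Tet2*-KO mouse 5 and lowest in *Tet2*-KO mouse 1, the same mice that were highest and lowest in the members. In the other *Tet2*-KO mice that sum reached 619 CPM. The monocyte sum and the fibroblast and pericyte sum had the same highest and lowest mice. WT mouse 2 and *Tet2*-KO mouse 5 were also the highest of their groups in the T cell, B cell and neutrophil sums, where *Tet2*-KO mouse 1 was not the lowest. Monocyte markers were lower at an unadjusted p under 0.05 in 5 of 6 tested genes of 7 (84.8 to 134 CPM summed against 38.6 to 98.4). These sums were mostly *Vcan*, with a mean of 58.3 CPM in WT mice and 51.5 CPM in *Tet2*-KO mice (log2 fold change -0.18). The other 5 tested markers had log2 fold changes from -1.95 to -1.65. Fibroblast and pericyte markers were lower in 6 of 6 (560 to 1282 against 126 to 715), T cell markers in 4 of 5 tested of 8 (14.6 to 22.4 against 9.33 to 14.3) and B cell markers in 2 of 2 tested of 5 (5.03 to 11.8 against 2.62 to 5.57). Of the 8 neutrophil markers, 3 could be tested and all were lower (6.11 to 15.5 against 1.69 to 4.86). After adjustment in edgeR 2 passed, against 0.0246% of all tested genes as lower. Homeostatic microglia markers were lower at an unadjusted p under 0.05 in 2 of 9 (750 to 1368 against 350 to 950) with a median of -0.25, and endothelial markers in 3 of 6 (191 to 247 against 172 to 211). In the summed levels of these 2 lists, mouse 4 and not mouse 5 was the highest *Tet2*-KO mouse. *Ly6g*, a neutrophil marker, had 0 counts in all 6 *Tet2*-KO mice and at most 1 count in any WT mouse, and no other marker in these lists was at 0 throughout a group. The part of these cell types in the members' levels was not tested.

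**Figure D5:**
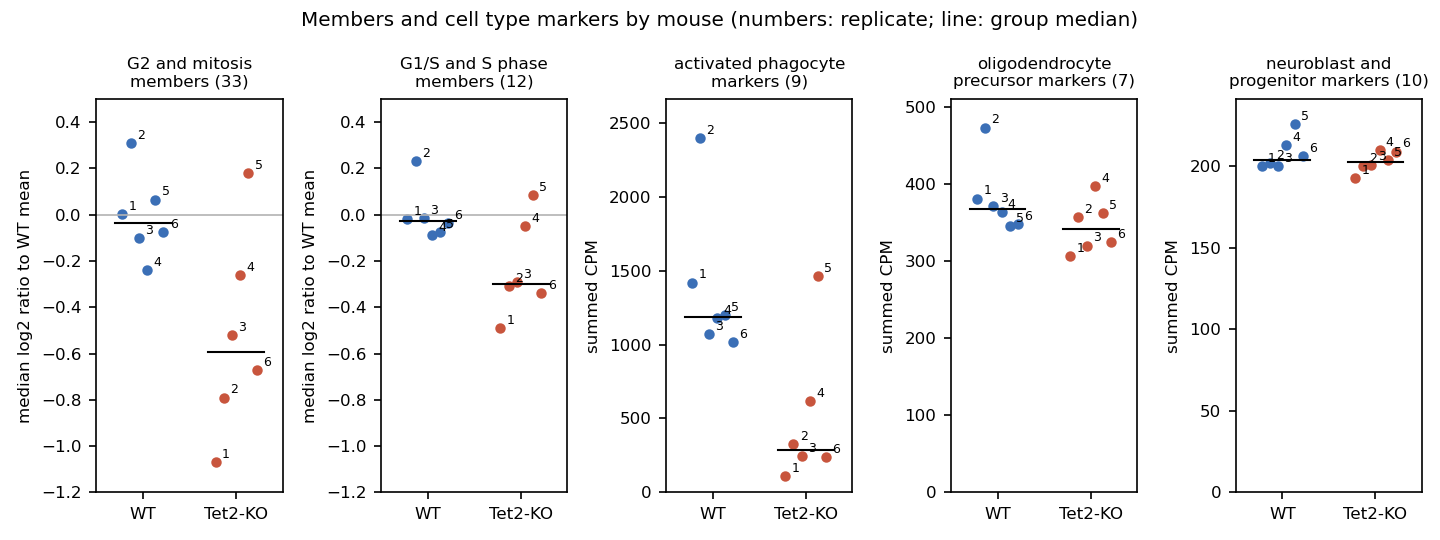
Per mouse, numbered by replicate, the median log2 ratio to the WT mean over the mitotic and the S phase members, and the summed CPM of the markers of activated phagocytes, oligodendrocyte precursors and neuroblasts, with lines at the group medians. *Tet2*-KO mouse 5 is the highest and mouse 1 the lowest of its group in both member panels and in the phagocyte panel, whereas the neuroblast sums of all 12 mice lie between 193 and 226 CPM.

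The 10 markers of neuroblasts and neural progenitors, lineages of the brain itself, summed to 200 to 226 CPM in WT mice and 193 to 210 CPM in *Tet2*-KO mice. They went both ways, 5 of 10 with a negative log2 fold change, around a median of 0.00. Of these, 3 were lower at an unadjusted p under 0.05, *Egfr* (-0.33), *Cd24a* (-0.66) and *Igfbpl1* (-0.69), against 12.2% of all tested genes. *Egfr* and *Cd24a* passed DESeq2 after adjustment (adjusted p = 0.0403 and 0.0294), and *Igfbpl1* did not. *Dcx*, the microtubule gene of migrating neuroblasts, was at 0.18 (edgeR unadjusted p = 0.0511). The similar sums thus hold opposite shifts, with mean *Dcx* at 56.8 CPM in WT and 64.3 CPM in *Tet2*-KO mice and mean *Egfr* at 49.3 and 39.1 CPM. The 7 markers of oligodendrocyte precursors summed to 345 to 473 CPM and 306 to 397 CPM, with a median of -0.11. Of them, 1 was lower at an unadjusted p under 0.05, *Pdgfra* (-0.38), near the 12.2% of all tested genes. Neuronal markers ran the other way, with 5 of 6 higher at an unadjusted p under 0.05, against 10.8% of all tested genes. Their sums were 3185 to 4442 CPM in WT mice and 4077 to 5349 CPM in *Tet2*-KO mice. Of the 6 astrocyte markers, 4 had a negative log2 fold change, around a median of -0.09. Only 1, *Slc1a2*, was higher at an unadjusted p under 0.05. Their sums, mostly *Slc1a2* (mean 4063 CPM in WT mice), were 5000 to 5150 CPM in WT mice and 4956 to 5597 CPM in *Tet2*-KO mice. Red blood cell markers were higher at an unadjusted p under 0.05 in 3 of 5, against 10.8% of all tested genes (21.2 to 31.5 against 27.4 to 41.2 CPM summed). A larger share of neuronal RNA leaves less of a library for other RNA. The CPM here were TMM-scaled, and any part of that share in the members' values was not tested.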

How the data were processed

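Brain RNA of 12 mice was sequenced by the authors after ribosomal RNA depletion, as paired reads. Per the labels' processing notes, the authors used Trimmomatic 0.36, STAR 2.5.2b and featureCounts (Subread 1.5.2) on mm10. The deposited values are raw counts per Ensembl gene, of uniquely mapped reads in exons, with no normalization, and the strand setting is not given in the sources used here. Symbols and coordinates came from GENCODE M21 (GRCm38), for 49056 of 49315 genes, and promoters from RefSeq (GRCm38).

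CPM are counts per 1000000 of the library total multiplied by its TMM factor. Genes passing filterByExpr were scaled with TMM and tested with the robust quasi-likelihood F test of edgeR 4.0.16 in R 4.3.3 (6 mice per group, no covariates), with Benjamini-Hochberg adjustment over 20290 genes and a threshold of 0.05. Standard errors were derived from each log2 fold change and its F statistic. Log2 ratios to the WT mean used a pseudocount of 0.1 CPM. Members that failed the filter were compared by exact permutation of CPM. Nothing in the labels says that the mice of a group shared a litter or a batch, and libraries of a group differed by more than sampling noise.

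Alternatives were the DESeq2 1.42.0 Wald test, which the study used, limma-voom (limma 3.58.1), upper quartile scaling, the size factors of DESeq2, omitting the filter, a minimum of 10 counts in every library, a replicate block and each library left out. Counts were also simulated with 200 changed genes (20130 genes for edgeR, 20290 for DESeq2). On the log2 scale, edgeR recovered 52% of changes of 0.5 and 90% of changes of 1. DESeq2 recovered the same shares, with 10.5% of all its calls false against 3.95% in edgeR. The simulated counts were drawn independently for each gene, from genes of all levels. Many members have few reads and move together across mice, so these shares are not the power for the members.

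The members, gene lists and markers were chosen with earlier results of these data known. Group ranges are given for *Mki67*, *Top2a* and, in each role, the member with the smallest p and the one with the highest mean count. They are also given for members past the adjusted threshold of edgeR or DESeq2 over all mice. Of the other lists, genes fixed by name or those with the smallest p are given. Marker genes named singly, and *Aurkb*, *Mcm3* and *Kif20a*, were chosen after their values were seen.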

Additional observations from a re-analysis of the deposited data

Results flagged for a closer look

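In each group of 6 mice, a mouse is listed here where its gap to the nearest other mouse, over the range of the group, passed the 95% limit of Dixon's test for 6 values. Chance passes this limit in about 1 of 20 groups. Here 108 groups were tested and 13 passed, so some of the mice listed may do so by chance. WT mouse 2 was far above the rest of its group in *Pcna* (31.1 CPM, the next at 25.8), *Top2a* (15.2 CPM, the next at 9.4), *E2f2* (5.52 CPM, the next at 3.38) and the median log2 ratio of the S phase members (0.23, the next at -0.01). The same mouse was far above its group in the summed markers of activated phagocytes (2396 CPM, the next at 1419), homeostatic microglia (1368 CPM, the next at 854), oligodendrocyte precursors (473 CPM, the next at 381), monocytes (134 CPM, the next at 95.1) and T cells (22.4 CPM, the next at 17.4). It was far below the others in the summed neuronal markers (3185 CPM, the next at 4018). *Tet2*-KO mouse 5 was far above its group in *E2f2* (3.61 CPM, the next at 1.95).

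Low values stood out in a pair of members. WT mouse 4 had 0.454 CPM of *Bub1*, with the next WT mouse at 1.24 CPM. *Tet2*-KO mouse 1 had 0.496 CPM of *Cdc20*, with the next at 1.41 CPM.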

How the results depend on the processing

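The sign of the mitotic and of the S phase medians held under every alternative. The count of members lower at an unadjusted p under 0.05, 13 in edgeR, was 25 with limma-voom (14.1% of all genes). It was 25 without WT mouse 2 and *Tet2*-KO mouse 5 (12.1% of all genes), and 6 to 29 with each mouse left out. The count past the adjusted threshold, 0 in edgeR, was 2 with DESeq2, 7 with limma-voom, 5 without both mice and 0 to 13 with each mouse left out, above 0 only without *Tet2*-KO mouse 5. With each mouse left out, the mitotic median ran from -0.70 to -0.40 and the S phase median from -0.27 to -0.14. Other cell cycle genes gave 16 to 36 lower and 1 to 3 higher, and 5 higher with limma-voom and 5 with upper quartile scaling against 2. Histone genes gave 13 lower with limma-voom (14.1% of all genes), 11 without both mice (12.1%) and 3 to 13 with each mouse left out, against 6.

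The replicate numbers did not pair the mice: deviations of same-numbered mice had a correlation over 0.1 in 1 of 6 pairs, and 1 WT library correlated best with its own number. With the replicate block, 13 members were lower at an unadjusted p under 0.05, 0 passed after adjustment, and the medians were -0.53 for the mitotic and -0.23 for the S phase members.

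Of 37 genes recomputed singly, 17 passed the adjusted threshold under some alternative, all of them without *Tet2*-KO mouse 5, 12 with limma-voom, 9 without both mice, 6 with DESeq2 and 1 with no filter. Among these 37, signs changed only in 4 genes near 0. *Ccne2* was at -0.055 with limma-voom, -0.053 without both mice and -0.04 to 0.034 with each mouse left out, negative without *Tet2*-KO mouse 5, *Tet2*-KO mouse 6 or WT mouse 2. *Prc1* was at 0.014 with upper quartile scaling and -0.12 to 0.08 with each mouse left out, positive without *Tet2*-KO mouse 1, *Tet2*-KO mouse 2, WT mouse 2 or WT mouse 6. *Ccnd1* ran from -0.11 to 0.026, positive only without WT mouse 2, and *E2f1* from -0.0049 to 0.13, negative without *Tet2*-KO mouse 3 or WT mouse 6. The cause of these changes was not tested. Members with under 20 counts in many mice, such as *Bub1*, *Dlgap5*, *Aurkb* and the 3 below the filter, are limited by depth.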
